A study of Mus musculus with 42 samples.

Results

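Ribosome-protected fragments were compared between the brains of adult mice lacking PCIF1 (knockout, KO) and of wild-type (WT) mice, gene by gene. The brain table held 50765 rows, of which 22008 were labelled protein-coding. A protein-coding gene entered the comparison when its value, after each library had been rescaled to the same protein-coding total, reached at least 10 in at least 3 of the 6 footprint libraries, and 12938 genes met this rule. The 370 genes that reached 10 in exactly 3 libraries had a median mean value of 11.9, and the 446 genes just outside, with exactly 2 such libraries, had 9.09.

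The study asked what PCIF1 does to transcript levels and translation in mouse tissues, and its 42 samples include brain footprints with their input RNA. KO brains came from 3 Pcif1-/- mice, whose allele lacks 89 bp across exon 15 and intron 16. The deletion takes out the catalytic NPPF residues and brings a premature stop codon. Embryos of the B6D2F1/J line, the cross of C57BL/6J with DBA/2J, were edited with Cas9, and the resulting founders were bred to C57BL/6J mates. WT brains came from 3 Pcif1+/+ mice. Lysates were made with cycloheximide and digested with 650 units of RNase I for 45 minutes, and undigested lysate supplied the input. The labels name no conditional allele or transgene.

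PCIF1 binds the phosphorylated tail of RNA polymerase II and methylates the adenosine that directly follows the cap of an mRNA, which turns Am into m6Am. The enzyme acts where transcription starts with A. A ribosome shields a short stretch of the mRNA that it is translating, and the number of such fragments from a gene reflects both how much of its mRNA is present and how densely ribosomes occupy it. Brain is a mixture of neurons, myelinating oligodendrocytes, astrocytes, microglia and vessel cells, so that a footprint value of whole brain is a sum over all of them. In such bulk samples, fewer cells of a type and less RNA per cell cannot be told apart.

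Each value below is a signal, the authors' read estimate for a gene divided by a factor for its library and then rescaled, and it is not divided by gene length. Each list of 3 values gives libraries 1, 2 and 3 of a genotype, whose numbers follow accession order. Footprints and input came from the same lysates, but the labels do not say which input library belongs to which footprint library. The libraries held an estimated 13613498 to 15497139 gene reads in KO and 13981620 to 16559686 in WT, of which 3926385 to 4573152 in KO and 3340826 to 3945255 in WT were protein-coding. As footprint libraries they were poor in nuclear RNA. Small nuclear and nucleolar RNA took 0.531, 0.514 and 0.598% of footprint signal in KO and 0.375, 0.294 and 0.344% in WT. In the input it took 11.1 to 12.6%. The KO footprint libraries all lay above the WT footprint libraries in this share, WT replicate 2 being the lowest, and that difference was not tested. As whole brain, all 26 myelin, 26 astrocyte and 22 microglia markers of the lists used here were measured above the filter. Protein-coding rows took 28 ± 2.41% of the signal in KO and 24 ± 1.59% in WT (SD, n = 3 each). This difference did not pass an exact two-sided permutation test (p = 0.2, where 3 libraries against 3 cannot go below 0.1).

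WT replicates 1 and 3 stood apart from the other 4 libraries. On the first principal component, which held 33.7% of the variance, the scores were -21.8, -22.3 and -32.3 in KO and 58.1, -23.7 and 42.1 in WT. Across the 12938 genes the Pearson correlation of log2 values was 0.936 to 0.937 between KO libraries and 0.934 between WT replicates 1 and 3. WT replicate 2 correlated at 0.923 to 0.924 with the KO libraries but at 0.899 and 0.904 with its own group. A single long non-coding RNA row on chromosome 17, AY036118, held 25.8% of the signal of WT replicate 1 and 13.9% of that of WT replicate 3. The same row was listed at 0 in WT replicate 2 and in all 3 KO libraries. Ribosomal RNA rows held 48.7% and 57.4% of the signal of WT replicates 1 and 3. They held 73.8% of that of WT replicate 2 and 66.6 to 71.4% in KO. Gapdh, the glycolytic dehydrogenase, illustrates the split in protein-coding genes with 4158, 5264 and 6198 in KO brains, against 878, 4835 and 925 in WT brains, and it was picked after its values were seen. Only WT replicates 1 and 3 were low in Gapdh. Comparisons are therefore also given against WT replicate 2 alone and against WT replicates 1 and 3. Without WT replicates 1 and 3, limma called 1 gene, Gm10260, and without WT replicate 2 it called 846.

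**Figure D1:**
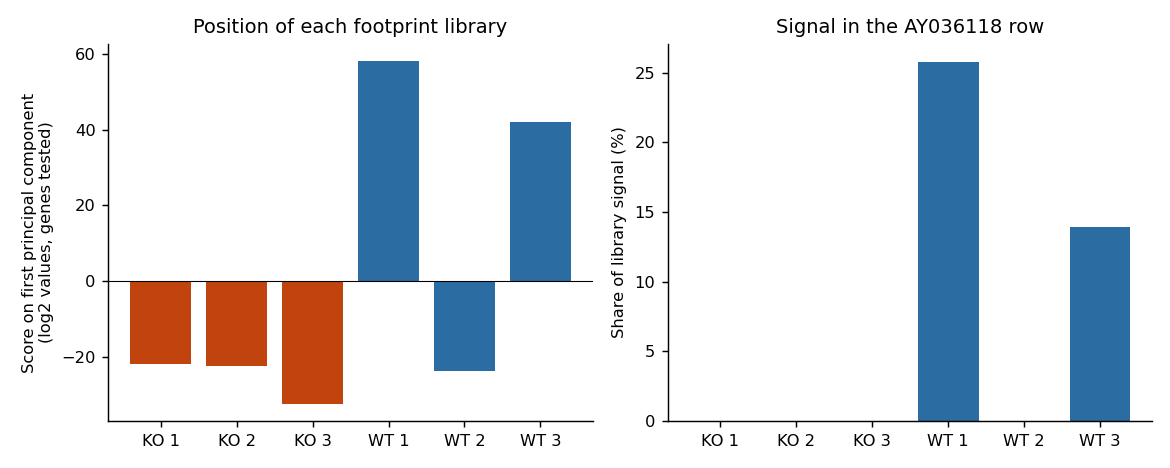
Left, score of each of the 6 footprint libraries (KO orange, WT blue) on the first principal component of log2 values over 12938 genes. Right, share of each library's whole signal, in percent, held by the AY036118 row. WT 1 and WT 3 score 58.1 and 42.1 and carry 25.8% and 13.9% in that row, while WT 2 lies at -23.7 beside the KO libraries and carries 0.

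Few genes passed the test over all of these libraries. Limma on log2(signal + 1) with Benjamini-Hochberg adjustment at 0.05 called 4 genes higher in KO (0.0309% of those tested) and 3 lower (0.0232%), or 7 of 12938 in all (0.0541%). At an unadjusted p below 0.05 there were 679 higher (5.25%) and 730 lower (5.64%), or 10.9% in all. The median log2 fold over all genes was 0.03 (quartiles -0.28 and 0.30). Against WT replicate 2 alone this median was -0.03, and against WT replicates 1 and 3 it was 0.04. All KO libraries lay above all WT libraries for 1137 genes (8.79%) and below them for 1084 genes (8.38%), and these shares are the background for the counts of non-overlapping genes given for each gene group. In the input, all KO libraries lay above all WT libraries for 7.58% of tested genes and below them for 9.45%.

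Abcb1a footprints rose in KO brains. The gene (ENSMUSG00000040584.8) encodes P-glycoprotein, the drug efflux pump of brain capillary endothelium, and spans bases 8567091 to 8748575 of chromosome 5 (RefSeq, GRCm38.p6). Its signal was 313, 419 and 723 in KO brains, against 20.0, 18.3 and 16.7 in WT brains. No KO library came near the WT libraries, which lay close together. The log2 fold was 4.57 ± 0.326 (SE), with a limma Benjamini-Hochberg adjusted p of 0.00504. Input RNA showed a smaller difference. Its values were 860.3, 589 and 353 in KO and 491, 449.6 and 256 in WT, the groups overlapped, and the log2 fold of 0.55 did not pass (adjusted p = 0.632). The footprint fold exceeded the input fold by 4.01 on the log2 scale, with a limma interaction adjusted p of 0.0177, 1 of 4 genes that passed that test (0.032% of the 12488 tested). That test treats the 12 libraries as independent, although they come from 6 mice. The call held when any 1 of the 6 libraries was left out (adjusted p = 0.013 to 0.0435). With WT replicate 2 as the only WT library the fold was 4.56 and the limma adjusted p was 0.164.

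Mlycd and Vps52 fell. Mlycd (ENSMUSG00000074064.6), at bases 119394852 to 119421838 of chromosome 8, encodes malonyl-CoA decarboxylase, which breaks down the malonyl-CoA that restrains fatty acid entry into mitochondria. Its footprint signal was 15, 15.5 and 27.9 in KO brains, against 135, 137 and 133 in WT brains, with no overlap. The log2 fold was -2.79 ± 0.313 (SE), with a limma adjusted p of 0.0419. Mlycd input was 120.0, 134 and 117 in KO and 213, 208 and 187 in WT, a log2 fold of -0.71 that did not pass (adjusted p = 0.226). Vps52 (ENSMUSG00000024319.18), at bases 33955779 to 33967038 of chromosome 17, encodes a subunit of the GARP and EARP tethering complexes, which receive vesicles returning from endosomes. Its footprint signal was 287, 374 and 341 in KO brains, against 1254, 1069 and 1679.8 in WT brains. The groups did not overlap, and the log2 fold was -1.98 ± 0.206 (SE) with a limma adjusted p of 0.0332. The Vps52 input fold was -0.69, with overlapping groups. Both calls were lost when any 1 library other than WT replicate 2 was left out, and the folds then ran from -3.07 to -2.64 for Mlycd and from -2.06 to -1.80 for Vps52. The limma adjusted p-values without 1 library reached 0.257 for Mlycd and 0.168 for Vps52, and without WT replicate 2 they were 0.0219 and 0.013.

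Of the other calls, 3 were genes listed at 0 throughout WT, and 1 was listed at 0 throughout KO. Eno1b, a retrotransposed copy of the enolase gene Eno1, had 42.5, 170.0 and 162 in KO brains, against 0, 0 and 0 in WT brains (limma adjusted p = 0.0328). Its input was 909, 1304 and 1568 in KO and 0, 0 and 0 in WT, the same split. Gm10260, annotated as protein-coding in the brain table and as the pseudogene Rps18-ps6 in RefSeq, had 161, 186 and 203 in KO brains, against 0, 0 and 0 in WT brains (limma adjusted p = 0.00159). These are copies of genes with introns elsewhere, and how the authors divided reads between near-identical sequences is not given in the sources used here. The last 2 calls were predicted genes. They were Gm49378, with 61, 45.6 and 44.3 in KO and 0, 0 and 0 in WT, and Gm4737, with 0, 0 and 0 in KO and 30.2, 55.9 and 44.1 in WT. Their limma adjusted p-values were 0.0328 and 0.0419, and they were named after their values were seen. Without WT replicate 1 or without WT replicate 3, Eno1b was not called (limma adjusted p = 0.0896 and 0.0644) and neither was Gm49378 (0.0795 and 0.051). Gm4737 was not called without any 1 of the KO libraries (limma adjusted p = 0.092 to 0.151), while Gm10260 was called without any 1 of the WT libraries. Each of these genes passed the filter only through the group where it was not 0. Leaving out a library of that group left the gene untested, and the libraries left out above held 0 for it. The fold of Gm10260 therefore stayed at 7.52, and its call was not checked against its KO libraries.

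The parent genes of both copies, looked up after the values of the copies were seen, had lower signal in KO. Rps18, which encodes a protein of the small ribosomal subunit, had 165, 225 and 144 in KO brains, against 319.6, 305 and 344 in WT brains. All KO libraries were below all WT libraries, but the log2 fold of -0.88 did not pass (limma adjusted p = 0.373). Rps18 input was 169.6, 160.2 and 158 in KO and 455, 438 and 423 in WT, and there the fold of -1.42 passed (limma adjusted p = 0.00612). When Rps18 and Gm10260 were added together, the sums were 327, 411 and 348 in KO and 320, 305 and 344 in WT, a log2 fold of 0.16. The footprint groups overlapped after this addition. The summed input was 399.7, 359 and 435 in KO and 479, 462 and 440.3 in WT, a log2 fold of -0.21 without overlap. Eno1 had 5197, 2721 and 2570.3 in KO and 12391, 7666 and 13437 in WT, with a fold of -1.71 that did not pass (limma adjusted p = 0.241). Adding Eno1b to it left 5239, 2891 and 2732 in KO and 12391, 7666 and 13437 in WT, a log2 fold of -1.65, against -0.39 for the summed input. After the copy was added, the KO footprint libraries were still below the WT footprint libraries for enolase and were no longer below them for Rps18. For Rps18 the KO input libraries were still below the WT input libraries.

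Vps52 and Rps18 lie head to head on chromosome 17. Taken singly, both genes had lower footprint signal in KO. Rps18 did not pass, however, and with Gm10260 added it was no longer lower (log2 fold 0.16). The stretch between the Rps18 start and the outer end of the Vps52 gene, in RefSeq, is shown for its position only. It was not tested for a shared effect. It runs over chr17:33955666-33955778 (RefSeq table, GRCm38.p6), read on the plus strand with Vps52 to the right and Rps18 to the left, with no part marked.
Rps18 and Vps52: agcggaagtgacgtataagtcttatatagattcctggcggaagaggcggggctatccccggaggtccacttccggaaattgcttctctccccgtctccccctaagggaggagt
Chromosome 17 as a whole had 614 tested genes, of which 8.79% were above all WT libraries and 12.9% below.

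The first transcribed base was read from RefSeq for a selection of the named genes, since PCIF1 methylates only an A there. Limma called Mlycd and Abcb1a of this selection in footprints, but not Hmgcs1, Mal or Rps18. No window is shown for Vps52, which was called. Each window below spans 10 bases before and 20 bases from the start listed in the RefSeq promoter table, on the gene's own strand, with the first transcribed base in capitals. Mlycd is at chr8:119394884-119394913 on the plus strand, Abcb1a at chr5:8567081-8567110 on the plus strand, Hmgcs1 at chr13:119690341-119690370 on the plus strand, Mal at chr2:127656676-127656705 on the minus strand and Rps18 at chr17:33955646-33955675 on the minus strand.
Mlycd: gaagcgaggcAgaggcccgctctccagtgg
Abcb1a: tgtcactattTtaaagactatcatttctct
Hmgcs1: gagcgactctGagtcccgggattggcagag
Mal: tcctgctggcAtatagtttccctgacgagc
Rps18: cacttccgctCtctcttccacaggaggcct
Of the 5 listed starts, those of Mlycd and Mal are an A, and this share describes only the selection. The listed Mlycd start lies 42 bases inside the RefSeq gene span given above, so the base at the outer end of that gene was not read. These are annotated starts, and the starts used in these brains were not measured here.

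Genes that start with A had footprint folds close to those of other genes. A single RefSeq start was found for 7932 of the tested genes, of 10067 matched by symbol. The median footprint fold was 0.02 for the 2204 genes that start with A, 0.04 for 1243 with C, 0.04 for 3752 with G and 0.06 for 733 with T. The share of genes above all WT libraries was 8.80% for A, 8.85% for C, 9.28% for G and 9.14% for T. The share below was 8.26%, 8.77%, 7.94% and 8.73% in the same order. Among these genes limma called 1 that starts with A, 0 with C, 1 with G and 1 with T. The listed start was the outer end of the RefSeq gene span for 4143 of the 7932 genes (52.2%). Over these, an alternative chosen after seeing the data, the medians were 0.04 for 1145 genes with A, 0.05 for 664 with C, 0.04 for 1933 with G and 0.06 for 401 with T, and the calls were 0, 0, 1 and 1 in the same order.

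**Figure D2:**
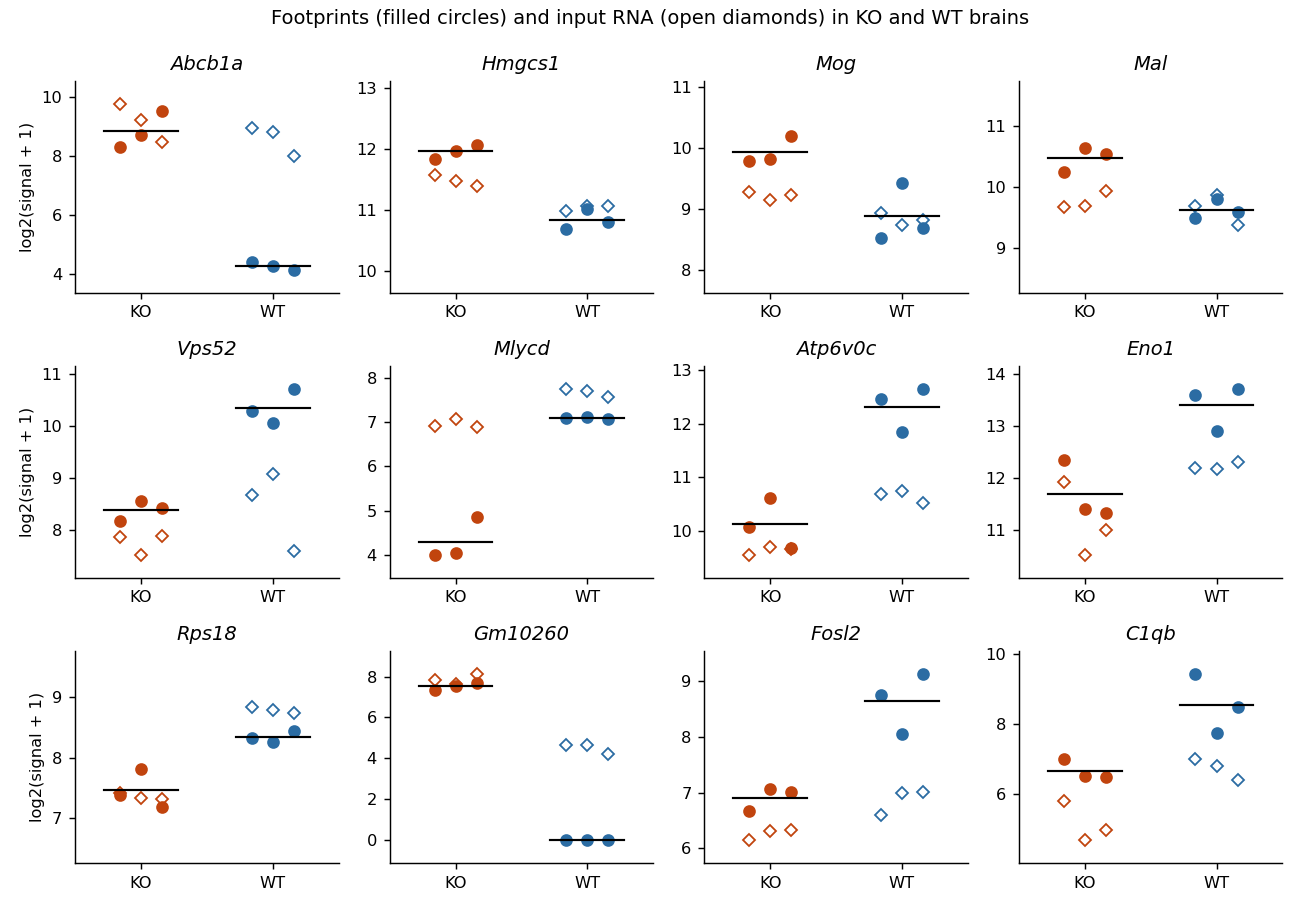
Log2(signal + 1) of 12 genes in each KO (orange) and WT (blue) library, with footprints as filled circles, their group mean as a line and input RNA as open diamonds. Footprint and input libraries were rescaled separately, so their heights are not to be compared with each other. The KO footprints of Abcb1a lie far above and those of Vps52 and Mlycd far below the WT footprints, and Gm10260 is at 0 in all 3 WT footprint libraries.

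Several genes lay just beyond the threshold. Hmgcs1, the cytosolic HMG-CoA synthase that feeds cholesterol synthesis, had 3679, 4010.4 and 4320.1 in KO brains, against 1646, 2076 and 1795 in WT brains. The KO libraries were all higher, at a log2 fold of 1.13 ± 0.137 (SE) and a limma adjusted p of 0.0517. Bbs7, a subunit of the BBSome that moves receptors through cilia, had 26.2, 24.2 and 31.6 in KO brains, against 109.6, 133 and 115 in WT brains, and its fold of -2.09 had a limma adjusted p of 0.0517. Atp6v0c forms the proton-conducting ring of the vesicular ATPase, which acidifies lysosomes and synaptic vesicles. Its footprints were 1078, 1564 and 819 in KO brains, against 5655, 3682 and 6422 in WT brains, with a log2 fold of -2.20 ± 0.281 (SE) and a limma adjusted p of 0.0617. In the input the same gene passed, with 749.7, 827 and 809 in KO and 1647, 1711 and 1473 in WT and a limma adjusted p of 0.0176. Chst15, a sulfotransferase that modifies chondroitin sulfate, had 241, 206 and 254 in KO and 66.1, 56.6 and 83.1 in WT, and Rnps1, a splicing activator deposited with the exon junction complex, had 379, 317 and 319 in KO and 815, 745 and 718 in WT. Both groups were separate for both genes, with limma adjusted p-values of 0.0617 and 0.0695.

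Other genes among those of smallest p did not pass either, and each named here had non-overlapping groups. Higher in every KO library were Kif13a, a kinesin that carries endosomal cargo (1.54 on the log2 scale), Sos2, an exchange factor that activates Ras (1.76), Tceanc2 (1.82), Cwc22, a spliceosome factor (1.47), H2-D1, a class I antigen-presenting heavy chain (1.27), and Gsn, the actin-severing gelsolin (0.72). Of the lower ones, H6pd makes NADPH in the endoplasmic reticulum (-2.15), Cisd3 is a mitochondrial iron-sulfur protein (-2.35) and Ccdc88c binds Dishevelled in Wnt signalling (-1.45). Of H6pd, Sos2, Kif13a and Ccdc88c the input folds were 0.10, 0.01, 0.00 and 0.13, all nearer to 0. H2-D1, in contrast, was higher in every KO library in the input as well, with values given under other observations. Input folds of the other genes of this paragraph are not given.

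Myelin and oligodendrocyte markers had mostly positive folds, and 0 of the 26 passed the test. Their median log2 fold was 0.22, against 0.03 over all genes, and 21 of 26 folds were positive. Against the background of 8.79% above and 8.38% below given earlier, 10 of the 26 lay above all WT libraries and 1 below. At an unadjusted p below 0.05, limma found 8 higher and 0 lower. The median was 0.39 against WT replicate 2 alone and 0.18 against WT replicates 1 and 3. Summed over the list, signal was 78906, 85111 and 86347 in KO and 63942, 50309.9 and 67774 in WT.

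Mbp, the basic protein of compact myelin, had 10630.3, 11619.8 and 10985 in KO brains, against 13489, 6887 and 11896 in WT brains and overlapped, with a fold of 0.10. Mog, a glycoprotein on the outer face of myelin, had 888, 906 and 1180.3 in KO brains, against 367, 688 and 410.1 in WT brains. Mal, a raft protein of myelin membranes, had 1222, 1589 and 1492 in KO brains, against 716, 897 and 767 in WT brains, and its start is the A-containing window shown above. Both were separate between groups, at folds of 1.06 and 0.85. The lowest fold of the list belonged to Cspg4, a marker of oligodendrocyte precursors, with 250.1, 287 and 235 in KO and 418, 245 and 368 in WT (-0.39). Pdgfra, also a precursor marker, had a fold of 0.21 with overlapping groups. Car2 (-0.35) and Qdpr (-0.33) were nearly as low as Cspg4. These last 3 genes were picked after their values were seen.

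Other members, picked after their values were seen, add genes of different roles. Ugt8a makes galactosylceramide and Fa2h hydroxylates the fatty acids of myelin lipids, and their folds were 0.77 and 0.41. Mag, a receptor on the inner myelin face, had 3979.8, 4079 and 4674 in KO and 2400.0, 2809 and 2844 in WT at a footprint fold of 0.66 and an input fold of -0.00. Opalin, Tspan2, Trf and Sox10 were also above all WT libraries, at 0.61, 0.43, 0.19 and 0.14. Qdpr was the member below them, at -0.33. In the input the list had a median fold of 0.16, with 10 members above and 1 below all WT inputs. Separate in the same direction in both assays were, among others, Ugt8a, Mog and Fa2h above and Qdpr below.

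Cholesterol synthesis genes had a positive median as well. Oligodendrocytes and astrocytes make brain cholesterol locally, and much of it goes into myelin. None of the 24 genes passed. The median log2 fold was 0.28, at 0.22 against WT replicate 2 and 0.37 against WT replicates 1 and 3. Signs were mixed, with 14 positive and 10 negative folds, but 6 members lay above all WT libraries and 0 below, and limma found 4 higher and 0 lower at an unadjusted p below 0.05. The summed signal of the list was 15089, 16100.2 and 15664 in KO and 11151, 12508 and 11324 in WT, and the groups did not overlap.

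Among the 6 members above all WT libraries were Hmgcs1, described above, and Sqle, Msmo1, Cyp51 and Ebp, singled out after their values were seen. Sqle, squalene epoxidase, had 417, 455 and 419 in KO brains, against 286, 283 and 277 in WT brains (0.61), with narrow groups. Msmo1, Cyp51 and Ebp act late in the pathway, and their folds were 0.91, 0.39 and 0.27. Pmvk, a kinase of the mevalonate branch, had the lowest fold, -0.45, with overlapping groups. Input folds were 0.44 for Hmgcs1 and 0.34 for Sqle, and 10 of the 24 inputs were above and 2 below all WT inputs.

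The Hmgcs1 promoter holds a form of the sterol regulatory element, the site bound by SREBP factors, which is shown because this gene came closest to the threshold among named pathways. The motif searched was TCACNCCAC on both strands of the 250 bases before each RefSeq start. It begins 137 bases before the Hmgcs1 start and is in capitals within chr13:119690184-119690252 on the plus strand (GRCm38.p6).
Hmgcs1: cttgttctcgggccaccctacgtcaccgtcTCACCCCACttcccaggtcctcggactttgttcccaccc
Over all RefSeq promoters of this length, 346 of 32851 (1.05%) held it, and 1 of 20 promoters of the cholesterol list did, covering 17 of its genes. A match is only a match of letters.

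**Figure D3:**
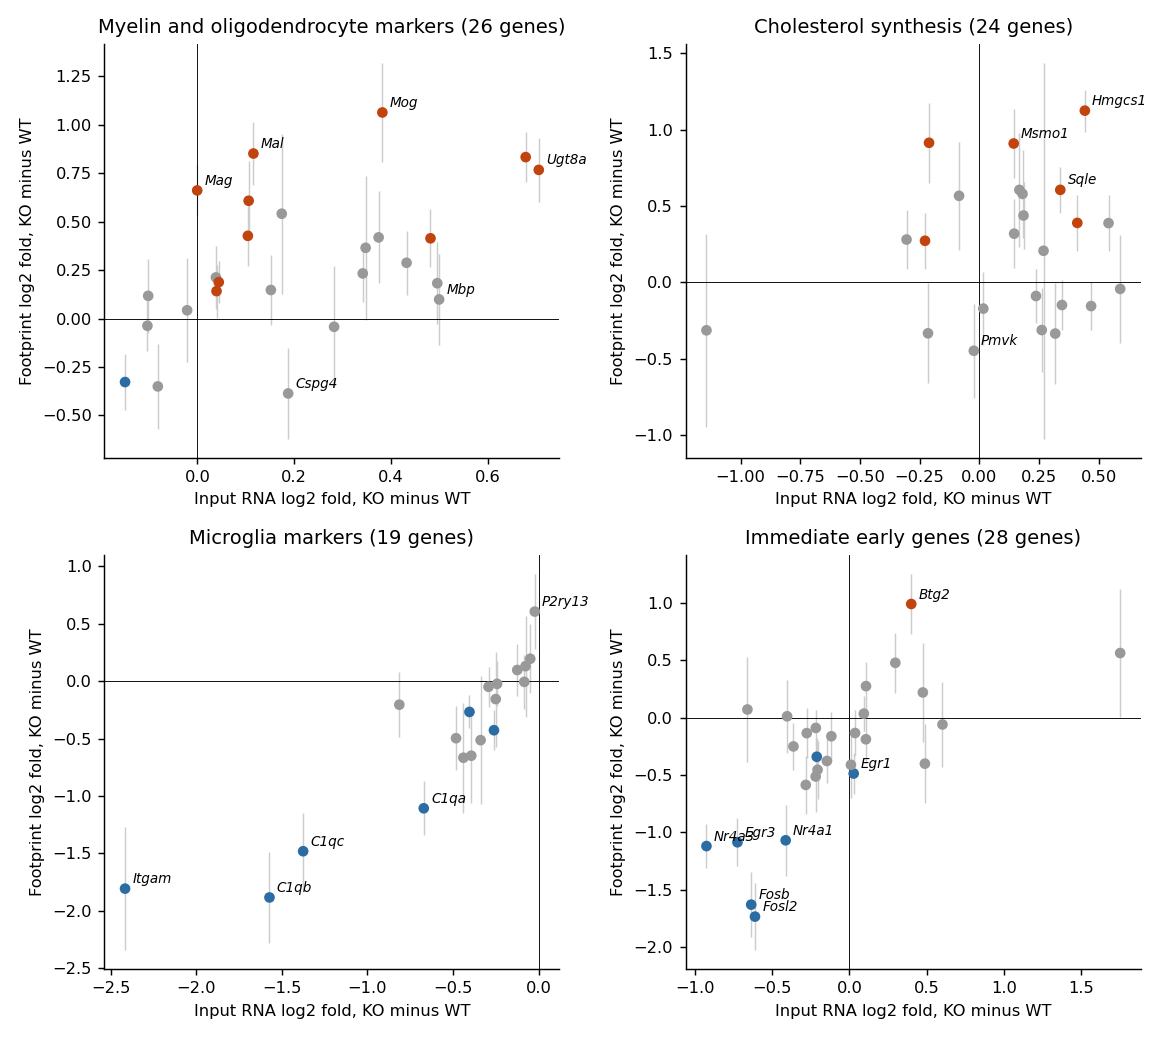
Footprint log2 fold (vertical axis, with SE bars) against input RNA log2 fold (horizontal axis), KO minus WT, for members of 4 gene lists tested in both assays. Orange members had all KO footprint libraries above all WT libraries, blue members all below, and grey members overlapped. The complement genes C1qa, C1qb and C1qc and Itgam lie low on both axes, and Ugt8a and Mog lie high on both.

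Microglia markers had mostly negative folds. Microglia are the resident macrophages of the brain and its main source of the complement component C1q. None of the 22 markers passed. The median log2 fold was -0.46, the lowest of the 32 lists examined (974 tested genes), and 18 of 22 folds were negative. No member lay above all WT libraries and 8 lay below. At an unadjusted p below 0.05, limma found 0 higher and 6 lower. The median was -0.35 against WT replicate 2 and -0.32 against WT replicates 1 and 3.

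C1qb footprints were 127, 90.7 and 88.1 in KO brains, against 681, 214 and 359 in WT brains. The KO libraries were all lower, the WT libraries differed widely among themselves, and the log2 fold of -1.88 ± 0.400 (SE) had a limma adjusted p of 0.31. C1qa had 181, 178 and 199.7 in KO and 551, 384 and 308 in WT and C1qc had 103, 93.2 and 70.8 in KO and 400.3, 169.7 and 224 in WT, at folds of -1.11 and -1.48. Both were separate between groups and were picked after their values were seen, as were the members of the next sentences. Itgam, the alpha chain of complement receptor 3, had 56.5, 234 and 75.3 in KO brains, against 245, 558 and 322 in WT brains (-1.81). Cd74, the invariant chain of class II antigen presentation, had a fold of -1.46.

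Other microglia markers had folds near 0 or above it. P2ry13, a purine receptor, had the highest fold of the list at 0.61, with 42.7, 82.8 and 71.4 in KO and 34.8, 46.1 and 43.5 in WT and overlapping groups. The folds of Csf1r, Cx3cr1 and P2ry12, the growth factor, fractalkine and purine receptors of resting microglia, were -0.05, 0.10 and 0.20, Cx3cr1 and P2ry12 being picked after their values were seen. The input had a list median of -0.34, with 0 members above and 9 below all WT inputs, and 6 members were below in both assays. C1qb input was 55.1, 25 and 30.5 in KO and 128, 111 and 82.9 in WT, at a fold of -1.57. Summed footprint signal of the list was 3030.0, 3218 and 3079 in KO and 4932, 4570.2 and 3897 in WT. The S100a8 gene of neutrophils was also lower, with 2.66, 7.98 and 12.6 in KO and 52, 25 and 27.8 in WT, and the part of blood cells in these values was not tested.

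Immediate early genes had a negative median against the WT libraries that stood apart and a median near 0 against WT replicate 2. These genes are switched on within minutes of neuronal firing. None of the 29 passed. The median log2 fold was -0.25, but it was -0.01 against WT replicate 2 alone and -0.35 against WT replicates 1 and 3. Of the 29, 1 lay above and 8 below all WT libraries, and limma found 1 higher and 6 lower at an unadjusted p below 0.05.

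Fosl2, a Fos family partner in AP-1, had 101, 132 and 127 in KO brains, against 431, 264 and 558 in WT brains, with WT replicate 2 the lowest of its group. The log2 fold was -1.73 ± 0.291 (SE) with a limma adjusted p of 0.205. Fosb, a second Fos protein, had 82.3, 79.3 and 125 in KO brains, against 274, 226 and 399 in WT brains (-1.63). The orphan receptor Nr4a3 had 261, 290.1 and 255 in KO brains, against 489.7, 558 and 728 in WT brains (-1.12). These did not overlap between groups, WT replicate 2 included. Nor did Egr3 and Nr4a1, picked after their values were seen, at -1.09 and -1.07. Egr1, the widely used activity marker, had a smaller fold of -0.49 in footprints and 0.03 in input. Btg2, an antiproliferative early gene, went the other way with 64.1, 79.6 and 74.3 in KO brains, against 41.6, 32.6 and 34 in WT brains (0.99). Input of the list had a median of -0.18, with 1 above and 6 below, and 4 members were below in both assays.

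**Figure D4:**
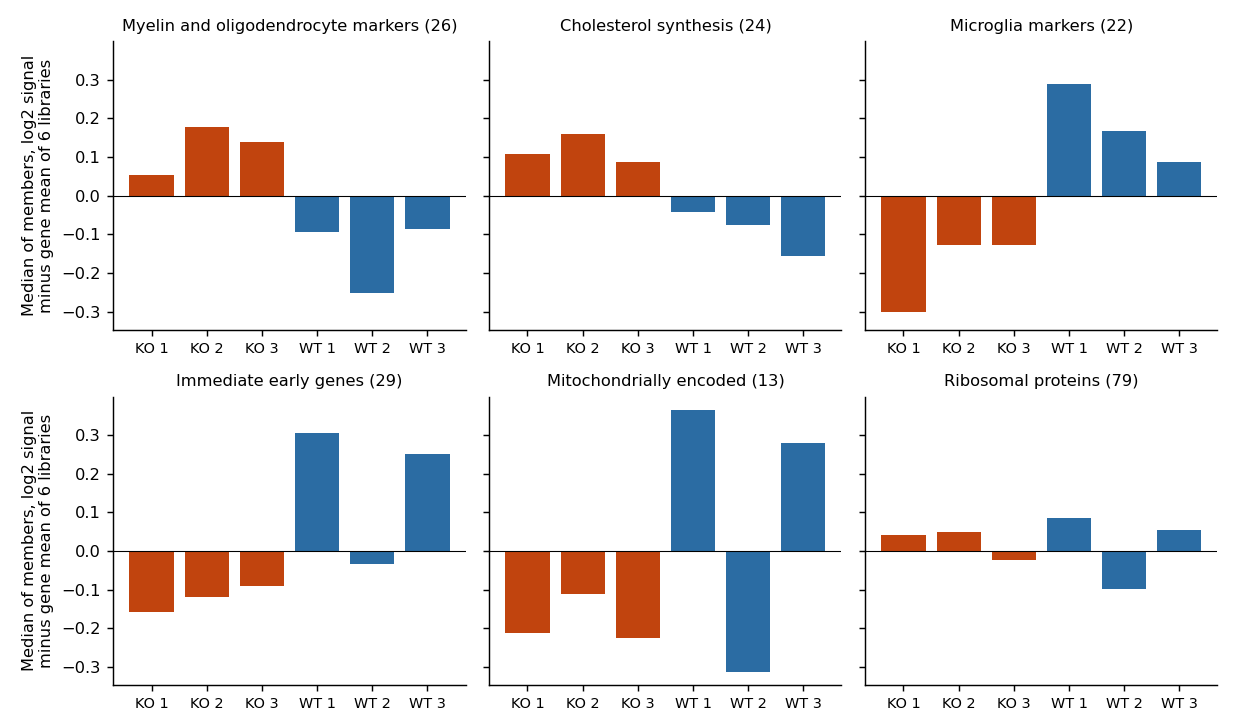
Median over the members of 6 gene lists of the log2 footprint signal minus each gene's mean over the 6 libraries, by library (KO orange, WT blue; number of members in brackets). Myelin and cholesterol genes are above 0 in all 3 KO and below 0 in all 3 WT libraries and microglia markers the reverse, while immediate early and mitochondrially encoded genes are high only in WT 1 and WT 3.

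Genes of the translation machinery had medians close to that of all genes. The 79 tested ribosomal proteins, of 83 in the table, had a median log2 fold of -0.03, with 6 above and 6 below all WT libraries. No member passed, and limma found 10 higher and 8 lower at an unadjusted p below 0.05. Their summed signal was 25589.7, 25342 and 24375 in KO and 27241, 24164 and 26126 in WT. Single members differed in both directions. Rps13 had 1.21, 21.6 and 0.379 in KO brains, against 73, 119 and 123 in WT brains, a log2 fold of -4.65 ± 0.971 (SE) whose limma adjusted p was 0.31, while its input fold was 0.20. Rpl10 had 142, 447 and 285 in KO and 129, 139 and 80.5 in WT (1.21). Ribosomal protein genes have many processed copies, so a value for one of them is uncertain.

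Initiation factors had a median of 0.15, with 8 of 47 above and 3 below all WT libraries. Eif4a2, an RNA helicase of the cap-binding complex, had 2298, 1878 and 1947 in KO and 1573, 1866 and 2113 in WT (0.15). The widest fold, 2.26 ± 1.61 (SE), was that of Eif3j1, whose values of 97, 21.8 and 1.28 in KO and 24.2, 0.855 and 0 in WT overlapped. Elongation and termination factors had a median of 0.00, with 1 of 16 above. Eef1a1, which delivers aminoacyl-tRNA, had 6903, 6621 and 7414 in KO and 2935, 6512 and 4140.3 in WT, where WT replicate 2 was close to KO. Its neuronal and muscle form Eef1a2 had 7338, 7169 and 6226 in KO and 12269, 6950.4 and 10682 in WT, with the same library close to KO and the other WT libraries on the opposite side. The 20 cytoplasmic tRNA synthetases had a median of 0.16, with 2 above and 1 below, and Aars was one of the 2, at 2367, 2073 and 2457 in KO and 1872, 1873 and 1965 in WT (0.27).

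Genes that respond to stressed or stalled translation were spread around 0. Among 28 tested stress kinases, ATF4 and ATF4 targets the median was 0.06, with 0 above and 3 below all WT libraries. Atf4, a transcription factor made when initiation is limited, had 416, 341 and 395 in KO brains, against 309, 222 and 480.4 in WT brains (0.26), with overlapping groups. Phgdh, the first enzyme of serine synthesis and an ATF4 target, was separate and lower, at 245, 342 and 351 in KO and 744, 473 and 925 in WT (-1.15), with a limma adjusted p of 0.352. The 12 mRNAs with regulatory upstream reading frames had a median of -0.18 (0.09 against WT replicate 2), and 0 of them were separate in either direction. Pelo, a ribosome rescue factor, had a fold of -0.50 with overlap.

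The cap and m6A machinery had a median of 0.13 over 36 genes, with 3 above and 4 below all WT libraries. Limma called 0 of them, and at an unadjusted p below 0.05 it found 2 higher and 4 lower. The small Pcif1 deletion leaves most of the transcript in place, so the gene's total does not test the genotype labels. Pcif1 footprints were 359, 304 and 184 in KO brains, against 235, 232 and 231 in WT brains, with a log2 fold of 0.22 ± 0.260 (SE). Input was 253, 198 and 257 in KO and 258, 320.3 and 389 in WT (-0.44). Cmtr1, which methylates the ribose of the same first nucleotide, had 549.6, 722 and 663 in KO and 575, 532 and 400.1 in WT (0.37). Fto, a demethylase of m6Am and m6A, had 1108, 1108 and 1110.0 in KO and 2120.0, 1004 and 1584 in WT (-0.44), where the KO libraries were nearly identical and WT replicate 2 lay just below them. Mettl14, the partner of the internal m6A writer, was separate, at 81.9, 102 and 63.1 in KO brains, against 151, 210.3 and 198 in WT brains (-1.18), with a limma adjusted p of 0.323 and an input fold of 0.09. Mettl3, the catalytic subunit, scattered widely, at 154, 19.2 and 61.8 in KO and 86.5, 49.1 and 97.9 in WT. Alkbh5, an m6A demethylase, had 0.25, and Zcchc4, the m6A writer of 28S ribosomal RNA, had the highest fold of the list at 0.77.

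Genes of oxidative phosphorylation are divided between the nuclear and the mitochondrial genome, and the mitochondrial values depended on the WT library. The 78 tested nuclear subunits of oxidative phosphorylation had a median of 0.15, with 8 above and 4 below all WT libraries. Atp5b, the catalytic subunit of ATP synthase, had 8612, 9134 and 10534 in KO brains, against 6631, 7293 and 7432 in WT brains (0.40), without overlap. Its input fold was -0.08. Atp5a1 had a fold of 0.47. The 13 mitochondrially encoded subunits, made by mitochondrial ribosomes, had a median of -0.34, at 0.12 against WT replicate 2 and -0.64 against WT replicates 1 and 3. Of these, mt-Atp6 (2335, 2409 and 2876 in KO and 3371, 3468 and 4125 in WT) and mt-Cytb (3694, 3768 and 3529 in KO and 5271, 3840.5 and 4719 in WT) lay below all WT libraries and 0 lay above. Both were named after their values were seen.

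Synaptic genes centred near the median of all genes. Presynaptic proteins had a median of 0.03 over 44 genes and postsynaptic proteins of -0.03 over 38. Snap25, of the vesicle fusion complex, had 18001, 18508 and 19835 in KO brains, against 15259.6, 19411 and 15312 in WT brains (0.18) and overlapped. Camk2a, the main kinase of the postsynaptic density, had 15809.9, 16232 and 15473 in KO brains, against 15677, 14536 and 15766 in WT brains (0.05). Erc1, an active zone scaffold, was the presynaptic member with the highest fold, at 532, 537 and 602 in KO and 307, 368 and 342 in WT (0.72). Nlgn2, the adhesion protein of inhibitory synapses, was the postsynaptic member with the lowest, at 608, 496 and 432 in KO and 993, 799 and 1177 in WT (-0.95). Neither passed, with limma adjusted p-values of 0.331 and 0.31. Dnm1, which pinches off vesicles, had 8223, 8147 and 6997 in KO and 14732, 7594 and 12619 in WT, where WT replicates 1 and 3 alone were high.

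Receptor and channel genes also had medians near that of all genes. The 44 glutamate and GABA receptor subunits had a median of 0.09, with 6 above and 2 below, and Grik5, a kainate receptor subunit, had 356, 367 and 434 in KO and 227, 223 and 184 in WT (0.87). Voltage-gated channels had 0.05 over 57, with 3 above and 6 below. Their extremes were Kcna6, at 1.21 with separate groups, and Scn3a, at -1.23 with 126, 126 and 150.3 in KO and 397, 144 and 544 in WT. Scn3a in WT replicate 2 was close to KO.

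Vessel markers held the only member of the 32 lists that passed, Abcb1a. The median of the 28 endothelial and mural markers was 0.08, with 6 above and 0 below all WT libraries, and their summed signal was 10818, 11843 and 11515 in KO and 11285, 10398 and 11282 in WT, with overlap. Those above beside Abcb1a were Flt1 and Kdr, which are VEGF receptors (0.96 and 0.68), Itm2a (0.48), the pericyte gene Rgs5 (0.57) and Col1a1 (0.56). They were named after their values were seen, and none of these 5 passed. Signs in the list were mixed, with 16 positive and 12 negative folds. Tek had the lowest fold, -0.94, with overlapping groups. Vtn (-0.83), Col1a2 (-0.50) and Pdgfrb (-0.30), also named after their values were seen, were negative with overlap.

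Astrocyte, choroid plexus and regional neuron markers had medians near that of all genes in most cases. Astrocyte markers had a median of 0.14, at -0.06 against WT replicate 2 and 0.17 against WT replicates 1 and 3. The glutamate transporter Slc1a2 had 32149.8, 29203 and 30467 in KO brains, against 25887, 27878 and 30895 in WT brains (0.12). Choroid plexus markers had -0.02, and Ttr, the transthyretin made there, had 5362, 5675 and 7781 in KO and 7422, 6468 and 7085 in WT. Medians were 0.05 for cortical and hippocampal, 0.03 for striatal and 0.16 for cerebellar neurons, and each of these 3 was below 0 against WT replicate 2. Thalamic, hypothalamic and brainstem neurons had -0.31 over 22 genes, with 2 above and 4 below. Its member Slc17a6, the vesicular glutamate transporter of those regions, had 659, 736 and 637 in KO and 1037, 837 and 753 in WT (-0.36). Whether dissection or regional makeup differed between the brains was not tested. The 8 tested blood markers of 18 ran from 0.89 against WT replicates 1 and 3 to -0.65 against WT replicate 2 in median fold, so their direction depended on the WT library. The median over all tested genes also changed sign, at -0.03 against WT replicate 2 and 0.04 against WT replicates 1 and 3. List medians near these values are therefore close to the background. In all, the medians against WT replicate 2 and against WT replicates 1 and 3 had opposite signs for 14 of the 32 lists. Beside blood cells, astrocytes and the 3 neuron lists of cortex, striatum and cerebellum, these were ribosomal proteins, stress kinases and ATF4 targets, upstream reading frame genes, selenoproteins, mitochondrially encoded genes, chaperones, presynaptic and postsynaptic genes and clock genes.

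**Figure D5:**
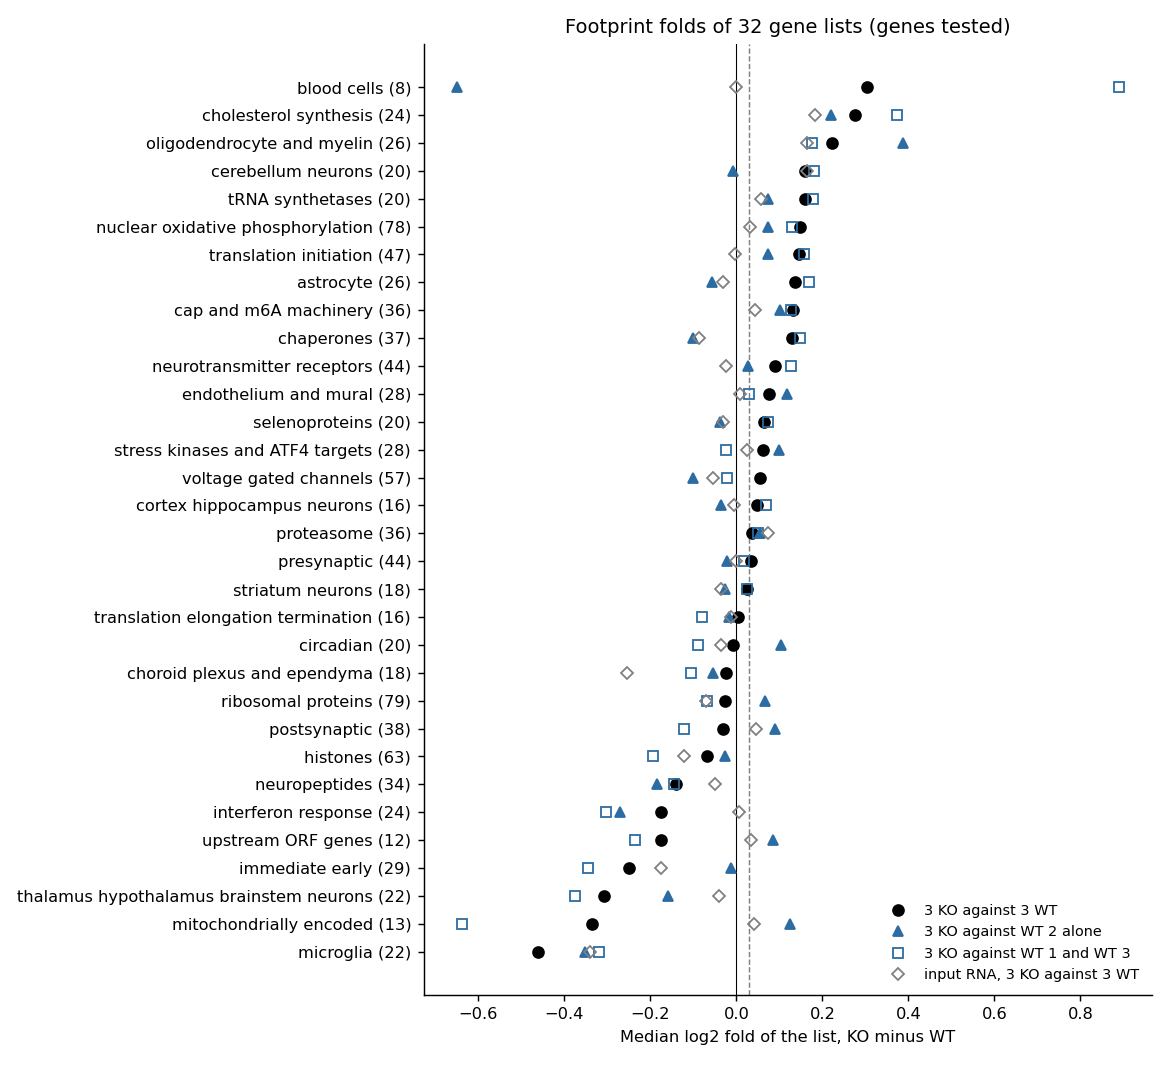
Median log2 fold (KO minus WT) of 32 gene lists, with the number of genes tested in brackets. Filled circles compare 3 KO with 3 WT footprint libraries, triangles with WT 2 alone, squares with WT 1 and WT 3, and diamonds give input RNA; the dashed line is the median of all genes, 0.03. Medians from 3 against 3 run from -0.46 for microglia to 0.30 for blood cells, and the triangles and squares fall on opposite sides of 0 for 14 of the 32 lists, widest apart for blood cells and mitochondrially encoded genes.

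Across all genes the footprint folds followed the input folds only loosely. Over the 12488 genes tested in both assays, Pearson's r between the folds was 0.16 and Spearman's rho 0.10, as a description across genes, which are not independent replicates, and 52.9% had the same sign. Limma called 13 of 13212 genes in the input (0.0984%). Of these, 12 were tested in footprints, 9 had the same sign there, and 2, Eno1b and Gm10260, were called in both. Fam234b, a membrane protein gene, was lower in both assays, with footprints of 898, 1169 and 1014 in KO and 1719, 2020.4 and 1592 in WT (-0.79, limma adjusted p = 0.31) and an input fold of -1.15 (limma adjusted p = 0.0422). Gapdh had an input of 1963, 2042 and 1734 in KO and 3446, 3611 and 3365 in WT (fold -0.86, limma adjusted p = 0.0185), the opposite sign of its footprint fold of 1.70, and the footprint fold rested on WT replicates 1 and 3.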

How the data were processed

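Ribosome footprints were measured in brains of 3 KO and 3 WT mice, with input RNA from the same lysates. The authors deposited a table with 1 column per library, each value being a signal, which per the values is a read estimate per gene divided by a library factor. Only 7.74 to 8.86% of footprint values equalled a whole number of reads within 0.01, so no count model was used. An exact 0 may be a failed estimate. Tools listed without a role in the submitters' processing notes are DESeq, DESeq2 1.25.10, R 3.6.2, Salmon 0.12.0 and STAR. For the brain table the sources used here give neither build nor annotation nor use of strand.

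Protein-coding rows were rescaled to the mean protein-coding total of the 6 libraries of an assay. Genes with at least 10 in at least 3 libraries were fitted as log2(signal + 1), a scale that understates the change of low genes, with limma 3.58.1 (empirical Bayes with trend) in R 4.3.3 and Benjamini-Hochberg adjustment at 0.05 over all genes tested. The interaction of assay and genotype used all 12 libraries as independent, since the labels do not tie input to footprint libraries, although both came from 6 mice. Tables were made with Python 3.11.15, pandas 2.3.3, numpy 2.4.6, scipy 1.17.1 and matplotlib 3.10.9. The fit was tested on simulated data. The labels describe 3 mice per genotype, so p-values reflect the spread among those mice. Libraries differed beyond sampling noise, with a chi-square per gene of 8.32 to 9.90 between KO libraries and 8.81 to 26.3 between WT libraries.

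Members and lists were chosen with earlier results of these data known, and the eIF2 kinases were moved out of the initiation factor list after the values were seen. Named genes were the 12 largest folds per direction among genes called without overlap, leaving out predicted models, filled up to 12 by smallest p at a mean of at least 50. To these came called list members, the 2 highest members and the extreme folds of each list, the 10 highest genes, and Pcif1, Mettl3, Mettl14, Fto, Alkbh5, Cmtr1 and Atf4. Not all of these are printed, and names outside the rule are marked as picked after their values were seen. Sequences are from RefSeq (GRCm38.p6), and motif matches were by letters. The alternatives were other pseudocounts, filters, scalings, variance models and libraries left out.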

Additional observations from a re-analysis of the deposited data

Results flagged for a closer look

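For 4 genes the difference between KO and WT in footprints differed from that in input RNA by a limma interaction over all 12 brain libraries, taken as independent although they come from 6 mice (4 of 12488 genes tested in both, 0.032%). For Gm21985 the footprint fold exceeded the input fold by 6.05 on the log2 scale (adjusted p = 0.00124), with footprints of 226, 82.5 and 161 in KO and 81.9, 123 and 60.6 in WT and input of 0, 0 and 0 in KO and 26.6, 37 and 56 in WT, the KO inputs being listed at 0. For Gm10260 it exceeded the input fold by 4.16 (adjusted p = 0.000713), with the WT footprints listed at 0 and input of 230.1, 199 and 277 in KO and 24.5, 24.1 and 17.7 in WT. For Abcb1a the difference was 4.01 (adjusted p = 0.0177), the only one of the 4 measured above 0 in every library. For Gm4737 it was -5.15 (adjusted p = 0.000713), with the KO footprints listed at 0 and input of 39, 46.2 and 58.9 in KO and 67.9, 57.7 and 48.7 in WT. Gm21985 passed the input filter only through its WT libraries. Gm10260 passed the footprint filter only through KO and Gm4737 only through WT. The interaction p-values of these genes therefore rest on members selected by the group where they are high, and they are given as values only. Gm21985 and Gm4737 are predicted genes, and the sources used here do not say how reads shared with other sequences were divided.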

How the results depend on the processing

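No paired analysis was possible because the labels carry no replicate numbers and do not tie input to footprint libraries. The 7 calls (4 higher, 3 lower) became 3 (2 higher, 1 lower) with a filter at 50, 16 (10 higher, 6 lower) without the variance trend and 96 (54 higher, 42 lower) when all 12 brain libraries, taken as independent although they come from 6 mice, shared the spread. Those 96 included all 7, and also Hmgcs1, Atp6v0c, Fosl2 and C1qa. With deposited values or median-of-ratios scaling the lower calls were 5 and the total 10. Leaving out 1 library gave 1 to 846 calls, 1 to 447 higher and 0 to 399 lower, the largest without WT replicate 2, where 6 of the 7 were shared. Genes listed at 0 in a whole group then went untested when fewer than 3 libraries reached 10. Leaving out WT replicates 1 and 3, an alternative chosen after seeing the data whose lone WT library is assumed to vary like the KO group, gave 1 call, 1 higher and 0 lower. Input calls (13) became 8 with a filter at 50 and 0 to 8 without 1 library, and interaction calls (4) became 2 and 2 to 910. The protein-coding share differed by 4.06 points, or 24.1 without ribosomal RNA in the denominator (exact two-sided permutation p = 0.4). The shares were then 88.6, 89.3 and 89.7% in KO and 43.7, 91.4 and 60.1% in WT, so that with WT replicate 2 as the only WT library the difference was -2.15 points. The denominator without ribosomal RNA still held the AY036118 row. The cause of these changes was not tested. Without WT replicates 1 and 3 the folds of Mettl3 (0.21), Dnm1 (0.033), Snap25 (-0.049), Pmvk (0.23), Cspg4 (0.066) and Fto (0.14) turned sign, as did Mettl3 without KO replicate 2 (range without 1 library -1.09 to 0.38) and, without WT replicate 2, Mbp (-0.19 to 0.29) and Atf4 (-0.0096 to 0.55). List medians kept their sign under all 19 alternatives for myelin (0.18 to 0.39), cholesterol (0.22 to 0.37), microglia (-0.49 to -0.32) and immediate early genes (-0.35 to -0.01), but not for mitochondrially encoded genes (-0.64 to 0.12), and 15 of the 32 lists kept their sign throughout.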

Other observations

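Other gene groups are given here as values, with 0 of their members called by limma. Chaperones had a median footprint fold of 0.13 over 37 genes (-0.10 against WT replicate 2 and 0.15 against WT replicates 1 and 3), with 5 above and 9 below all WT libraries and, at an unadjusted p below 0.05, 2 higher and 4 lower. Hspa8, the constitutive cytosolic Hsp70, had 14017, 13541 and 14028 in KO and 15737, 17460.2 and 16646 in WT (-0.26), and the small heat shock protein Cryab had 362, 286 and 345 in KO and 614, 499 and 507 in WT (-0.70). Both had KO libraries below all WT libraries. Proteasome subunits had a median of 0.04 over 36, with 5 above and 5 below, and Psmb8, a subunit of the immunoproteasome, had 14.5, 9.05 and 7.23 in KO and 20.5, 20.8 and 26.9 in WT (-1.12).

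Selenoproteins, whose synthesis recodes a stop codon, had a median of 0.06 over 20 genes (-0.04 against WT replicate 2 and 0.07 against WT replicates 1 and 3). Txnrd1, a thioredoxin reductase, had 472, 471 and 483 in KO and 153, 464 and 149.8 in WT (1.11), where WT replicate 2 lay beside KO and the other WT libraries far below. Msrb1, a methionine sulfoxide reductase, had 66.5, 70.0 and 59.6 in KO and 135, 95.3 and 119 in WT (-0.81) and was lower in both footprints and input without overlap. Histone genes had a median of -0.07 over 63 of 81, with 5 above and 8 below, and Hist4h4 had 398, 462 and 486 in KO and 119.9, 250.4 and 111 in WT (1.57).

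Neuropeptide and hormone genes had a median of -0.14 over 34 of 41, with 1 above and 6 below all WT libraries. Trh, the thyrotropin-releasing hormone, had 69.8, 52.6 and 40.2 in KO and 125, 108 and 93.3 in WT (-1.02) and an input fold of -1.04, without overlap in either assay. Clock genes had a median of -0.01 over 20 (0.10 against WT replicate 2 and -0.09 against WT replicates 1 and 3). Per3 was the member above all WT libraries, with 103, 119 and 75 in KO and 61.3, 52 and 53.3 in WT (0.80), and Bhlhe40 (-0.64), Cry2 (-0.51) and Bhlhe41 (-0.36) were the 3 below. Cry1 had the lowest fold, -2.41, with 138, 7.68 and 15.9 in KO and 151, 214 and 93.6 in WT, and overlapped. Interferon response genes had a median of -0.18 over 24 of 34. Its highest fold was that of H2-D1, with 815, 724 and 715 in KO and 273, 419 and 261 in WT in footprints and 311, 249.9 and 327 in KO and 185, 192 and 157 in WT in input, separate in both.

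In regional markers, the striatal dopamine receptor gene Drd1 had 193, 153 and 218 in KO and 116, 110.1 and 134 in WT (0.63) and the cortical and hippocampal marker Wfs1 had 459, 559 and 482 in KO and 1209, 569.5 and 955 in WT (-0.80). Pcp4, a calmodulin regulator of Purkinje cells, had 2249, 2416 and 2955 in KO and 1254, 2275 and 1237 in WT (0.73), with WT replicate 2 among the KO values.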
